A study of Mus musculus with 16 samples.

Results

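The genes described here encode enzymes that inactivate steroid hormones or convert one active steroid into another. They were 10 genes listed by name: Hsd11b1, Hsd11b2, Srd5a1, Srd5a2, Srd5a3, Hsd17b1, Hsd17b3, Hsd17b4, Hsd17b11 and Sts. Through GENCODE M21, 9 of the 10 matched 1 row each of a table of 54838 genes, and 8 of these 9 had enough counts to be tested among 18214 genes. Sts had no entry in that annotation and was not analysed here. Hsd17b3 was counted but was too low for the test.

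The RNA-seq libraries came from adrenals taken at 4 weeks from 16 mice of mixed genetic background, 1 library per mouse, in 4 groups of 4. The groups were female control, female Rspo1 GOF, male control and male Rspo1 GOF, where GOF stands for a gain of function of Rspo1, the gene of R-spondin 1, which is secreted and amplifies the response of cells to WNT ligands. The labels name no other allele or agent, and the promoter or allele that raises Rspo1, the cells that carry it and the genotype of the controls are not given in the sources used here. The comparisons ask how expression differs by sex and by Rspo1 genotype. Levels are in CPM, counts divided by the scaled library total and put on the usual CPM scale, and levels of different genes are compared only in FPKM, which also divides by gene length. A gene is called where its adjusted p is under 0.05 in the quasi-likelihood test of edgeR, Benjamini-Hochberg adjusted across the 18214 tested genes, and "rose" and "fell" are used for called genes.

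Library totals ran from 31275146 to 43003968 counts. Rspo1 itself was at 14.8 ± 17.3 CPM in female controls and 457 ± 80.1 in female GOF, and at 30.5 ± 12.5 in male controls and 804 ± 200.3 in male GOF (SD, n = 4). Its female controls ran from 3.19 to 40.5 CPM, with a median of 7.79. Ddx3y, a Y-linked gene, had no count in the female libraries and a mean of 147 to 153 CPM in the male groups. Among steroid synthesis genes, the adrenal cortex enzymes Cyp11a1, Cyp21a1 and Cyp11b1 had group means between 4098 and 10360 CPM. Some libraries held transcripts of neighbouring organs. The summed level of 12 liver markers was 10150 CPM in male control 2 against 8.87 to 783 CPM in the others, and that of 8 markers of the kidney proximal tubule and loop reached 1038 CPM in female control 1, reached 174 CPM in female control 3 and did not pass 2.40 CPM elsewhere. Every sum over 7 fat cell markers was lower in GOF (294 to 798 CPM) than in controls (1527 to 3419 CPM), as were those over 7 capsule markers (175 to 450.1 against 684 to 2550 CPM) and 8 medulla markers (194 to 877 against 4719 to 11230 CPM). The same held for 6 zona glomerulosa markers (259 to 522 against 778 to 1269 CPM) and for the liver markers (8.87 to 89.7 against 118 to 10150 CPM), while 5 zona fasciculata markers overlapped (6781 to 10920 against 6788 to 15070 CPM). Single zona glomerulosa markers did not all follow their sum in females. Their log2 fold changes with GOF ran from -3.12 to 0.70 there, and from -2.55 to -1.04 in males. Markers of the X-zone, an inner zone of the mouse adrenal cortex, Akr1c18 and Pik3c2g, summed to 4906 to 7351 CPM in female controls and to 3.25 CPM or less in every other library. The part of these differences in the results that follow was not tested. In whole glands, fewer cells of a type and less RNA per cell cannot be told apart.

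As background, corticosterone, the main glucocorticoid of mice, is regenerated from its inactive keto form by HSD11B1 and oxidised to it by HSD11B2. The 5-alpha-reductases SRD5A1 and SRD5A2 reduce the double bond in ring A of progesterone, testosterone and corticosterone, which makes dihydrotestosterone from testosterone and opens the route by which glucocorticoids are broken down. Enzymes of the 17-beta-hydroxysteroid dehydrogenase family, named HSD17B, exchange the keto and hydroxyl groups at carbon 17, although several of them act mainly on lipids. Steroid sulfatase, encoded by Sts, releases free steroids from their sulfates.

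The gene-proximal sequences of the 2 steroid 5-alpha-reductases are shown first, because these genes catalyse the same reaction and had different patterns over the 4 groups. Each run is 5′ to 3′ on the gene's strand from RefSeq on GRCm38.p6 and ends at the start of the gene or before it. Capitals mark matches to CCAAT, the CCAAT box, or GGGCGG, the GC box, on either strand. Srd5a1 is shown from chr13:69611464-69611713, minus strand, the 250 bases before its RefSeq start. Srd5a2 is shown from chr17:74047917-74048110, minus strand, 194 bases, since the last 56 before its RefSeq start lie within the GENCODE gene.
Srd5a1: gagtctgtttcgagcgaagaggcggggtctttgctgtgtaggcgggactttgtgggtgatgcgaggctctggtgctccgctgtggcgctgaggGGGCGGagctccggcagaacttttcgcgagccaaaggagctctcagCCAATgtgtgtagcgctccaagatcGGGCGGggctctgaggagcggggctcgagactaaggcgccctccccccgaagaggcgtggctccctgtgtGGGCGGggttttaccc
Srd5a2: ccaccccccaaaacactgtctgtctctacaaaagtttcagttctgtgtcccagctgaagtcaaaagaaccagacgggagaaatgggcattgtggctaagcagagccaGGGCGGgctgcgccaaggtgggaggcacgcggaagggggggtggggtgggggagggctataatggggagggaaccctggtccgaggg
Over the full 250 bases, Srd5a1 held 3 GC boxes and 1 CCAAT box and Srd5a2 held 2 GC boxes, 1 of them across the end of the printed run and so not marked, and no CCAAT box. GC boxes occur in 32.7% and CCAAT boxes in 33.8% of 32851 mouse promoter stretches of the same length. Neither stretch held TATAAA (12.4% of all stretches), AAGGTCA, a binding core of the cortical factor NR5A1 (4.08%), TGTTCT, a core of the element bound by the glucocorticoid and related receptors (16.1%), or CTTTGA, a TCF/LEF core (13.8%). Over the 250 bases the GC content was 64.8% for Srd5a1 and 63.2% for Srd5a2, against a median of 52.4%. Of the 10 genes, 6 had a promoter stretch in the table. The absence of a match says only that these letters are not in this window.

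**Figure D1:**
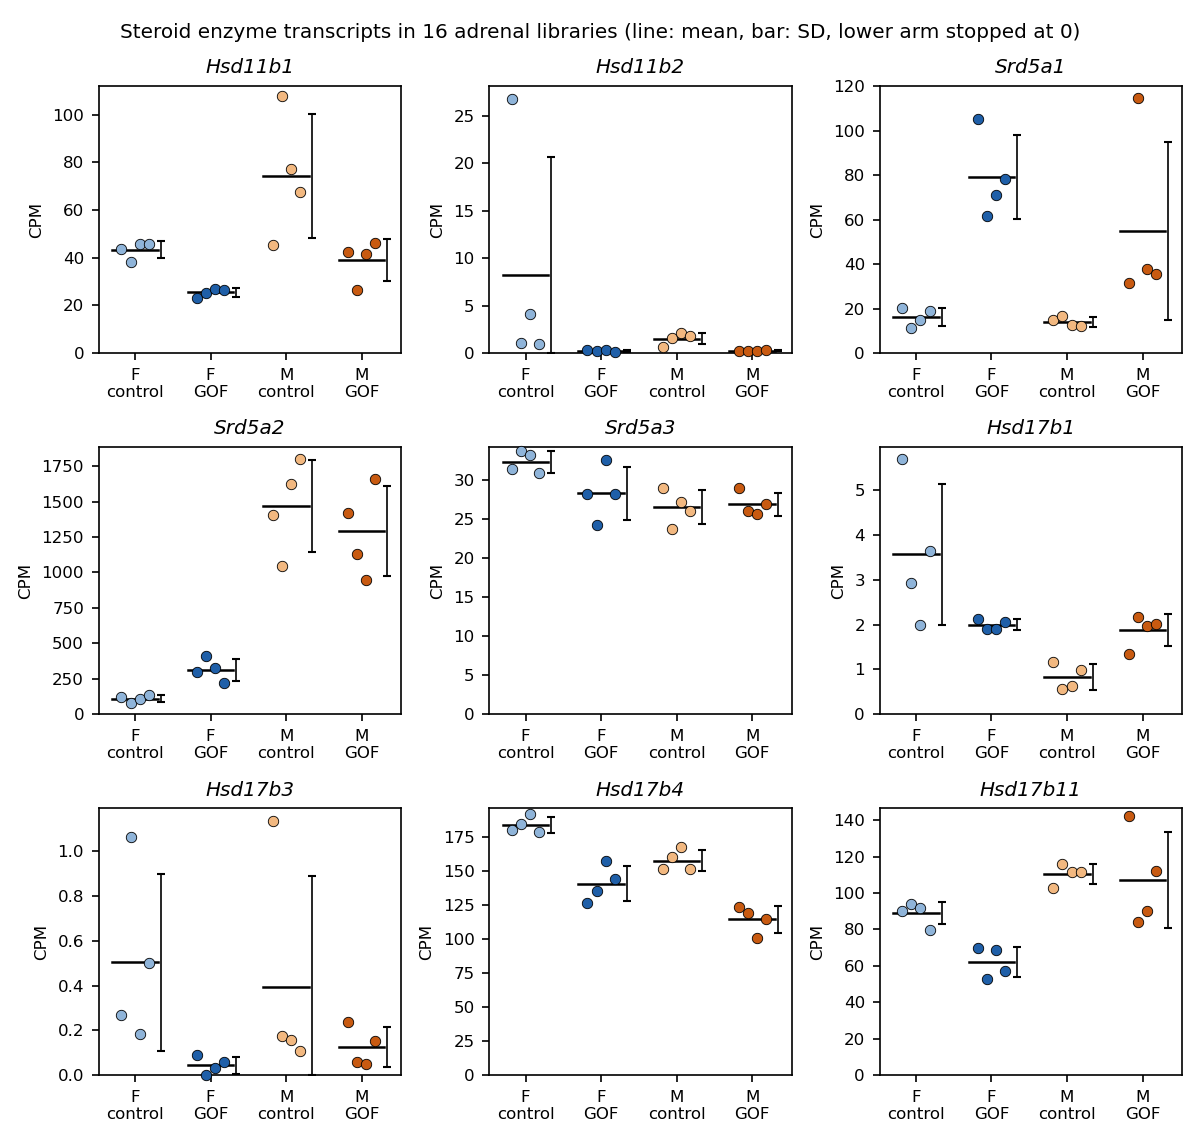
Levels in CPM (vertical axes, each starting at 0) of the 9 genes found in the count table, by group on the horizontal axes (F female, M male). Points are libraries in the order of their replicate numbers, lines are means and bars the SD. Srd5a2 separates the sexes, Srd5a1 separates GOF from control, and single libraries lie far above their group for Hsd11b2, Srd5a1 and Hsd17b3.

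The genes ranked differently in the sexes when compared per length. In female controls Hsd17b4 was highest, at 167 ± 3.44 FPKM (SD, n = 4), followed by Srd5a2 at 65.7 ± 15.4, Hsd17b11 at 42.3 ± 2.22, Hsd11b1 at 35.9 ± 3.44, Srd5a3 at 25.6 ± 0.547 and Srd5a1 at 11.1 ± 2.95. The ranges over libraries did not overlap between neighbours in this order. Hsd11b2, Hsd17b1 and Hsd17b3 followed at 4.34 ± 6.62, 2.58 ± 1.17 and 0.493 ± 0.379 FPKM. Hsd11b2 overlapped with its neighbour on either side, while Hsd17b1 and Hsd17b3 did not overlap with each other. The Hsd11b2 mean rests on female control 1, a library with kidney transcripts, at 14.2 FPKM. The other female controls were at 0.489 to 2.13 FPKM, below the mean of Hsd17b1. In male controls Srd5a2 was highest, at 894 ± 219 FPKM, above Hsd17b4 at 144 ± 7.16 and Hsd11b1 at 62.1 ± 21. Hsd11b1 overlapped there with Hsd17b11, at 53 ± 3.08 FPKM. Srd5a3 at 21.2 ± 1.80 and Srd5a1 at 9.55 ± 1.26 came next, and Hsd11b2, Hsd17b1 and Hsd17b3 lay within overlapping ranges at means of 0.386 to 0.809 FPKM.

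Of the 8 tested genes, 7 were called between GOF and control in females, Srd5a1 and Srd5a2 higher and Hsd11b1, Hsd11b2, Hsd17b1, Hsd17b4 and Hsd17b11 lower, where 39.6% of all tested genes were called, 19.0% higher and 20.6% lower. In males 5 were called, Srd5a1 and Hsd17b1 higher and Hsd11b1, Hsd11b2 and Hsd17b4 lower, where 36.9% of all tested genes were, 15.2% higher and 21.8% lower. The median log2 fold change over the 8 was -0.45 in females and -0.11 in males, beside 0.05 and 0.01 over all tested genes. Between males and females, 6 of the 8 were called in controls, 2 higher and 4 lower in males, with 23.4% called among all genes, 13.5% higher and 9.89% lower. That member count was 3 to 5 without 1 library, and 2 without female control 1, female control 3 and male control 2. It was 3 without any one of male control 2, female control 3 and male control 4. It was also 3 with the animal number range as a covariate, in 4 ranges cut for this fit from the numbers in the labels. Only the range with the lowest numbers held both sexes, and its only female libraries were female control 1 and female GOF 1. Sex comparisons with this covariate thus rest on few libraries, and sex and range can hardly be told apart in them. In GOF 4 of the 8 were called, 3 higher and 1 lower in males, with 29.6% among all genes, 13.3% higher and 16.3% lower, and with the animal number range as a covariate 1 member was called, Srd5a2. The interaction of sex and genotype, which tests whether the GOF difference is the same in both sexes, was called for 2, Srd5a2 and Hsd17b1, with 4.21% called among all genes, 1.59% above 0 and 2.61% below. The GOF comparison in females and the sex comparison in controls share the female control libraries, and the other pairs share groups likewise, so the calls are not independent of each other.

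**Figure D2:**
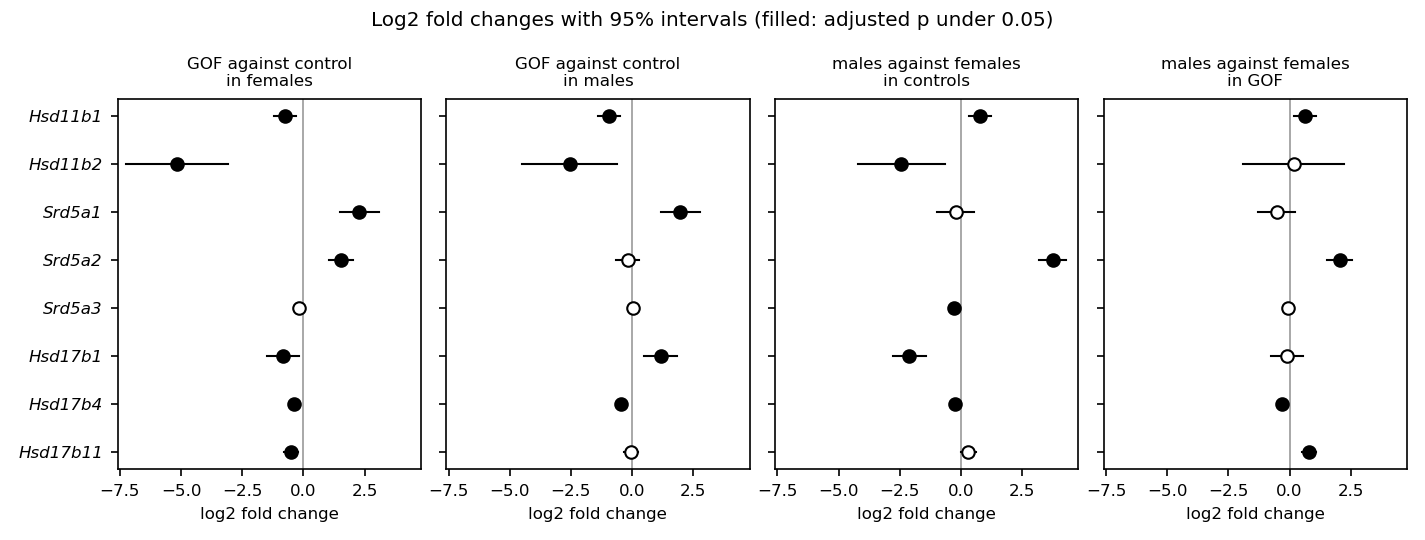
Log2 fold changes (horizontal axes) of the 8 tested genes in the 4 comparisons, with 95% intervals as bars and filled points where the adjusted p is under 0.05. Srd5a2 stands at 3.75 between males and females in controls and at 2.05 in GOF, and Srd5a1 lies above 0 in GOF against control in both sexes.

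Among the 8 tested genes, Srd5a2 had the largest log2 difference between the sexes in both genotypes. It encodes the 5-alpha-reductase known for making dihydrotestosterone in the prostate and genital tract. Srd5a2 (ENSMUSG00000038541, chromosome 17, 74016955 to 74047916, minus strand, GRCm38, protein-coding) stood at 119, 76.7, 108 and 132 CPM in female controls 1 to 4. In male controls it stood at 1404, 1042, 1623 and 1799 CPM. Every male control was thus far above every female control. The log2 fold change, males against females, was 3.75 ± 0.253 (SE), a 13.5-fold difference (edgeR adjusted p = 2.56e-07). In female GOF the values were 296, 411, 322 and 222 CPM, all above the female controls. The rise in females was 1.52 ± 0.232 on the log2 scale, or 2.87-fold (edgeR adjusted p = 0.00015). In male GOF the values were 1422, 1132, 945 and 1662 CPM and overlapped with male controls. The male difference of -0.18 had a 95% interval of -0.67 to 0.30 on the log2 scale, and was not called. The GOF effect differed between the sexes by -1.71 ± 0.322 on the log2 scale (edgeR adjusted p = 0.00888). In GOF the males remained above the females without overlap, by 2.05 ± 0.235 (adjusted p = 2.63e-05), so the sex difference was 4.13-fold there against 13.5-fold in controls. These calls held in each of the 16 fits that left out 1 library, and without female control 1, female control 3 and male control 2 the interaction was -1.90 (adjusted p = 0.0333). CT025731.1, annotated as a processed transcript, shares 144 exonic bases with Srd5a2 on the same strand, so reads there cannot be assigned to either. It had no count in any group.

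Srd5a1 rose with GOF in both sexes. It encodes the other 5-alpha-reductase that acts on steroids, known in liver, skin and brain. Srd5a1 (ENSMUSG00000021594, chromosome 13, 69573449 to 69611442, minus strand, protein-coding) was at 20.3, 11.2, 14.8 and 18.8 CPM in female controls 1 to 4 and at 105, 61.5, 71.1 and 78.4 CPM in female GOF. The groups did not overlap. The log2 fold change was 2.28 ± 0.369 (SE), or 4.86-fold (edgeR adjusted p = 0.000266). Male controls were at 14.8, 16.7, 12.6 and 11.98 CPM, and male GOF at 31.5, 115, 37.8 and 35.4 CPM. The male groups did not overlap either, and male GOF 2 stood above the other 3. The male log2 fold change was 1.97 ± 0.366 (edgeR adjusted p = 0.000787), and without male GOF 2 it was 1.30, still called, with a mean of 34.9 ± 3.19 CPM (n = 3) in place of 54.9 ± 40.1. The interaction was -0.31, with a 95% interval of -1.38 to 0.76 and an adjusted p of 0.773, so no difference between the sexes was detected; without male GOF 2 it was -0.94 (adjusted p = 0.0741). Between males and females in controls the log2 fold change was -0.22, with a 95% interval of -0.98 to 0.55. In GOF it was -0.53 with male GOF 2 and not called, and -1.17 without it (adjusted p = 0.00102); with all libraries and voom quality weights it was called, at -0.91 (adjusted p = 0.011). The noncoding gene Gm17108 shares 476 exonic bases with Srd5a1 on the same strand, so reads there cannot be assigned to either; its mean was 0.194 to 0.641 CPM. Nsun2, a gene on the other strand whose span covers that of Srd5a1 without shared exonic bases, had log2 fold changes of 0.39 in females, called, and 0.21 in males, not called.

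**Figure D3:**
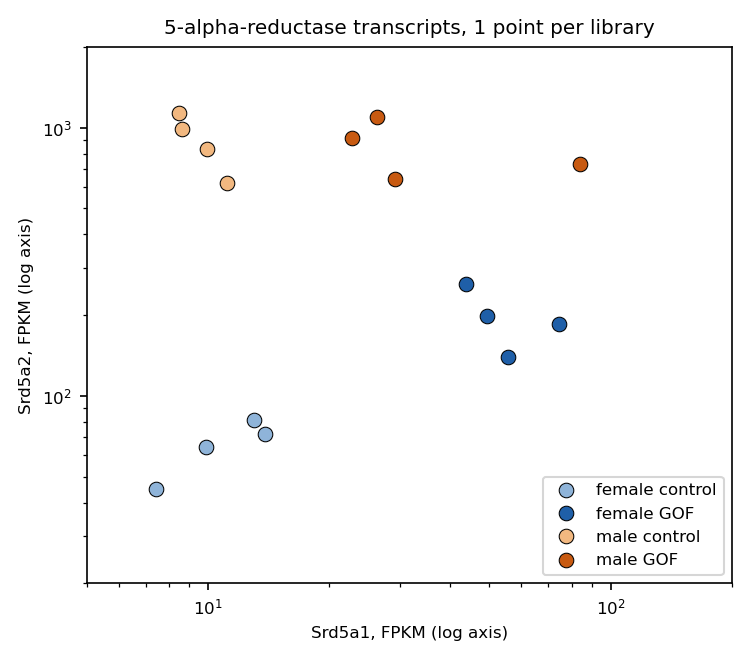
FPKM of Srd5a1 (horizontal, log axis) and Srd5a2 (vertical, log axis), 1 point per library, coloured by group. Female controls are low on both axes, male controls low for Srd5a1 and high for Srd5a2, and both GOF groups lie to the right of their controls.

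The balance of these isozymes, as the ratio of Srd5a2 to Srd5a1 in FPKM within a library, was 5.20 to 6.49 in female controls and 2.50 to 5.94 in female GOF. In male controls it was 55.5 to 133, and in male GOF 8.74 to 41.7. The ratio ranges of males and females did not overlap in either genotype, and Srd5a2 was the higher of the pair in all 16 libraries. These ratios combine the values above and were not tested.

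Srd5a3 encodes an enzyme of the same family that reduces polyprenol to dolichol, the lipid carrier for protein glycosylation. Srd5a3 (ENSMUSG00000029233, chromosome 5, 76140271 to 76155504, plus strand) had the narrowest range of the family, 23.8 to 33.8 CPM over all 16 libraries. Its log2 fold change with GOF was -0.19 (95% interval -0.38 to -0.00428, adjusted p 0.0971) in females and 0.02 (-0.17 to 0.21, adjusted p 0.875) in males by edgeR, neither called. In females it was called lower by DESeq2, at -0.22 (adjusted p = 0.0474), with at least 10 counts in every library, at -0.25 (adjusted p = 0.0285), and without female GOF 3, at -0.30 (adjusted p = 0.017). In controls Srd5a3 was called lower in males, by -0.29 ± 0.0884 (SE) (edgeR adjusted p = 0.0302), from 32.3 ± 1.37 CPM in females to 26.5 ± 2.196 in males (SD, n = 4). That call was lost in 5 of the 16 fits that left out 1 library, at -0.24 (adjusted p = 0.0962) without male control 2, and with the animal number range as a covariate, at -0.25 (adjusted p = 0.258). It was also lost with no filter, at -0.32 (adjusted p = 0.0578), and without the 3 control libraries, at -0.24 (adjusted p = 0.266). Of 7 other genes of the dolichol pathway, 0 rose and 2 fell with GOF in females, and 2 rose and 1 fell in males, with medians of -0.03 and 0.03; among all tested genes 39.6% and 36.9% were called, and without the 3 control libraries 0 of the 7 were called in females and 1 in males, Dpm1. Dpm1, a subunit of the enzyme that makes dolichol phosphate mannose, rose by 0.88 in males and Alg5, which makes dolichol phosphate glucose, by 0.31, while Dolk, the dolichol kinase, fell by 0.23. Calls of Dpm1, Alg5 and Dolk in males held in 15, 10 and 11 of the 16 fits, respectively.

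Hsd11b1, the reductase that regenerates active glucocorticoid, fell with GOF in both sexes. Hsd11b1 (ENSMUSG00000016194, chromosome 1, 193221634 to 193264075, minus strand, protein-coding) was at 43.5, 38.1, 45.8 and 45.6 CPM in female controls 1 to 4 and at 23.0, 25.4, 26.9 and 26.4 CPM in female GOF. The female groups did not overlap, and the log2 fold change was -0.77 ± 0.211 (SE) (edgeR adjusted p = 0.00998). Male controls were at 45.2, 108, 77.1 and 67.6 CPM and male GOF at 42.3, 26.2, 41.6 and 46.2 CPM. The male groups overlapped through male control 1, the lowest of the controls. The male log2 fold change was -0.93 ± 0.21 (edgeR adjusted p = 0.00315), and the interaction of -0.16 was not called (95% interval -0.79 to 0.47). Male control 2, the library with the highest liver sum, was also the highest for Hsd11b1, a gene known to be abundant in liver. Without it the mean of the male controls was 63.3 ± 16.4 CPM (n = 3) in place of 74.4 ± 26 (n = 4), and the fall in males was -0.70, still called. Hsd11b1 is also known in fat cells and fibroblasts, and the fat cell and capsule sums were lower in every GOF library than in every control; their part in the fall was not tested. Males were above females by 0.78 ± 0.210 in controls (adjusted p = 0.0153), and by 0.62 ± 0.210 in GOF (adjusted p = 0.0373), both by edgeR and both with overlapping groups. In controls the call was lost without female control 1, female control 3 and male control 2 together, at 0.59 (adjusted p = 0.148), and in GOF it was lost in 7 of the 16 fits that left out 1 library (adjusted p up to 0.0944), without male GOF 4. Both sex calls were also lost with the animal number range as a covariate, at 0.81 (adjusted p = 0.145) in controls and 0.62 (adjusted p = 0.323) in GOF, and on log2(FPKM + 1) with no filter (limma adjusted p = 0.0503 and 0.0702). The control call was lost when the control groups were fitted alone (adjusted p = 0.0525), and the GOF call with no filter (adjusted p = 0.059). Marker sums differed by sex too. In controls the capsule sum was 684 to 777 CPM in females and 947 to 2550 CPM in males, the fat cell sum 1527 to 1789 and 1853 to 3419 CPM, and the sum of 10 macrophage markers 234 to 373 and 415 to 566 CPM. In GOF the capsule sum was 175 to 370 CPM in females and 381 to 450.1 CPM in males, while the fat cell sum was higher in females, 425 to 798 against 294 to 366 CPM. Their part in the sex difference was not tested. Lamb3, on the other strand, spans the whole of Hsd11b1 without shared exonic bases and had at most a mean of 2.11 CPM in any group. H6pd, whose enzyme supplies HSD11B1 with its cofactor, had log2 fold changes of -0.23 in females and -0.17 in males, neither called.

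Hsd11b2, the oxidase that protects mineralocorticoid target cells from glucocorticoid, was close to the limit of counting in GOF. Hsd11b2 (ENSMUSG00000031891, chromosome 8, 105518755 to 105523988, plus strand, protein-coding) was at 26.8, 1.03, 4.12 and 0.909 CPM in female controls 1 to 4 and at 0.321, 0.183, 0.269 and 0.143 CPM in female GOF, the latter from 5 to 11 counts each. Male controls were at 0.646, 1.61, 2.07 and 1.77 CPM and male GOF at 0.265, 0.257, 0.175 and 0.332 CPM. In both sexes every control was above every GOF library. The high values were those of female control 1 and female control 3, the libraries with kidney transcripts, and the collecting duct, where Hsd11b2 is known to be abundant, was represented in them: 7 of its markers summed to 50.4 CPM in the first and 5.69 CPM in the second, and to no more than 1.40 CPM elsewhere. The female log2 fold change was -5.15 ± 0.977 (SE) (edgeR adjusted p = 0.000867), and without these 2 libraries and male control 2 it was -2.08 ± 0.469 (adjusted p = 0.0064). On log2(FPKM + 1) with no filter it was -1.52 and not called (limma adjusted p = 0.0623). The male log2 fold change was -2.56 ± 0.905 (edgeR adjusted p = 0.0384); it lost its call with no filter (adjusted p = 0.0815), with voom quality weights (0.101) and on log2(FPKM + 1), at -0.64 (0.335). It also lost its call in 7 of the 16 fits that left out 1 library, at -2.42 (adjusted p = 0.0931) without male GOF 3, and stood at -2.53 ± 0.423 (adjusted p = 0.000696) without the 3 control libraries. In controls Hsd11b2 was called lower in males, at -2.43 ± 0.836 (adjusted p = 0.0479), but without female control 1 the difference was -0.41 and not called. It was also not called in 13 other fits without 1 library, with no filter (adjusted p = 0.101), on the control groups alone (0.13), with voom quality weights (0.464) or on log2 FPKM (0.239 to 0.401), and without the 3 control libraries it was 0.62 (adjusted p = 0.48). In GOF the difference between the sexes was 0.17, with a 95% interval of -1.89 to 2.22.

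**Figure D4:**
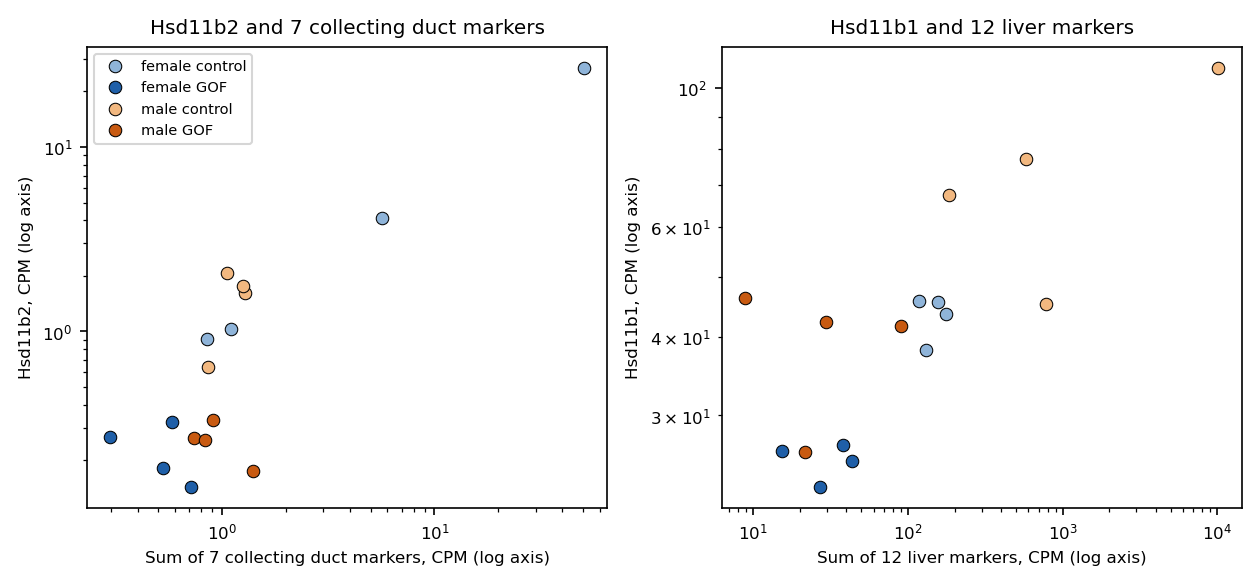
CPM of Hsd11b2 against the sum of 7 collecting duct markers (left) and of Hsd11b1 against the sum of 12 liver markers (right), all on log axes, 1 point per library. Female control 1 is the highest for Hsd11b2 and its marker sum, and male control 2 for Hsd11b1 and its marker sum.

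In FPKM the ratio of Hsd11b1 to Hsd11b2 was 113 to 291 in female GOF and 161 to 375 in male GOF, against 58.8 to 110.5 in male controls and 2.56 to 79.2 in female controls. The lowest ratio, 2.56, was that of female control 1. Hsd11b1 thus exceeded Hsd11b2 in all 16 libraries, and the ratios were not tested.

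The GOF difference of Hsd17b1 was not the same in the sexes: it rose in males, while its fall in females depended on the fit. It encodes the enzyme that reduces oestrone to oestradiol, best known in ovarian granulosa cells and placenta. Hsd17b1 (ENSMUSG00000019301, chromosome 11, 101078411 to 101080527, plus strand, protein-coding) was at 5.71, 2.94, 1.999 and 3.64 CPM in female controls 1 to 4 and at 2.13, 1.90, 1.91 and 2.06 CPM in female GOF. The female groups overlapped through female control 3. Male controls were at 1.17, 0.555, 0.618 and 0.978 CPM and male GOF at 1.35, 2.17, 1.98 and 2.02 CPM. Every male GOF library was above every male control, and the male and female GOF groups overlapped. The log2 fold change with GOF was -0.84 ± 0.305 (SE) in females (adjusted p = 0.0407), and 1.175 ± 0.315 in males (adjusted p = 0.00925), both by edgeR. The interaction was 2.01 ± 0.439 (edgeR adjusted p = 0.0203), and it was called in all 16 fits that left out 1 library. The fall in females was lost with the animal number range as a covariate (adjusted p = 0.0627), with no filter (0.0727), with voom quality weights (0.0678) and in the fits on log2 FPKM (0.0564 to 0.129). It was also lost in 6 of those 16 fits, and without female control 1, which had the most kidney transcripts and the highest Hsd17b1, it was -0.52 (adjusted p = 0.177). Without the 3 control libraries the fall in females was -0.72 (adjusted p = 0.0802) and the interaction 1.74 (adjusted p = 0.0576), and on log2(FPKM + 1) with no filter the interaction was 1.10 (limma adjusted p = 0.0756). In controls males were below females without overlap, by -2.10 ± 0.32 (edgeR adjusted p = 0.000334), and by -1.83 (adjusted p = 0.00248) without the 3 libraries. In GOF the difference between the sexes was -0.09, with a 95% interval of -0.74 to 0.56. Female controls, the highest group for Hsd17b1, were also the only group with X-zone markers above 3.25 CPM. The 7 granulosa cell markers, which include Hsd17b1 itself, had summed levels of 46.2 to 98.4 CPM in female controls, 82.4 to 127 CPM in female GOF, 45.5 to 131 CPM in male controls and 54.2 to 166 CPM in male GOF, with Fshr at 0 in all 16 libraries; the part of these cells in the result was not tested. Naglu, the neighbour upstream of Hsd17b1 on the same strand, had log2 fold changes of 0.10 and -0.01 with GOF.

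Hsd17b3, the testicular enzyme that reduces androstenedione to testosterone, was barely counted. Hsd17b3 (ENSMUSG00000033122, chromosome 13, 64058266 to 64089230, minus strand, protein-coding) had 10, 33, 6 and 17 counts in female controls 1 to 4 and 3, 0, 1 and 2 counts in female GOF. Male controls had 37, 6, 5 and 4 counts and male GOF had 9, 2, 2 and 5. In females every control was above every GOF library, and in males the groups overlapped. Fitted with no filter, its log2 fold change with GOF was -3.50 in females (edgeR adjusted p = 0.0116). In males it was -1.63 (edgeR adjusted p = 0.197), and the interaction of 1.87 was not called (edgeR adjusted p = 0.60). With each female GOF library set at 3 counts, Hsd17b3 was at least 6.08-fold lower there than in female controls. Without female control 2, the highest control, it was at least 3.83-fold lower. These bounds hold for the observed values only. They cover neither counting error in either group nor the spread between mice. Male control 1 alone, at 1.14 CPM, was above 0.175 CPM among male controls. Male control 1 also had the highest sum of 6 Leydig cell markers, 16240 CPM against 4103 to 11780 CPM elsewhere, and 4 of the 6 were at 1 CPM or more there against 2 or 3 elsewhere. That list includes Hsd17b3 itself and Star, which the adrenal cortex expresses and which alone reached 16040 CPM among male controls. Insl3, the Leydig cell hormone on the list, did not exceed 1.19 CPM in any library, and the part of these cells in the result was not tested.

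Hsd17b4 fell with GOF in both sexes. It encodes the peroxisomal D-bifunctional protein, which acts on very long chain fatty acids and bile acid intermediates and can oxidise oestradiol. Hsd17b4 (ENSMUSG00000024507, chromosome 18, 50128201 to 50196269, plus strand, protein-coding) was at 180, 184, 191 and 179 CPM in female controls 1 to 4 and at 126, 135, 157 and 144 CPM in female GOF. Male controls were at 152, 160, 167 and 151 CPM and male GOF at 123, 119, 100.2 and 115 CPM. GOF and control did not overlap in either sex. In females the log2 fold change was -0.38 ± 0.0755 (SE) (adjusted p = 0.00107), and in males it was -0.46 ± 0.0756 (adjusted p = 0.000241), both by edgeR and both called in all 16 fits that left out 1 library. Males were below females without overlap in controls, by -0.22 ± 0.0754 (adjusted p = 0.0454), and in GOF, by -0.30 ± 0.0755 (adjusted p = 0.00765). The control call was lost in 7 of the 16 fits, at -0.20 (adjusted p = 0.123) without female control 3. Both calls were lost with the animal number range as a covariate, at -0.10 (adjusted p = 0.55) in controls and -0.14 (adjusted p = 0.444) in GOF. Sex and range can hardly be told apart with that covariate, as stated above. The control call was lost as well with no filter (adjusted p = 0.0643) and without the 3 control libraries (adjusted p = 0.269).

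The other genes of peroxisomal beta-oxidation were listed with Hsd17b4 for comparison. Of 11 tested, 8 fell and 0 rose with GOF in females, where 20.6% of all tested genes fell, and 7 fell and 0 rose in males, where 21.8% did; without the 3 control libraries 6 fell in each sex. The medians were -0.67 and -0.44, beside 0.05 and 0.01 over all tested genes. Abcd2, a peroxisomal importer of fatty acids, had means of 28.3 (control) and 6.79 CPM (GOF) for females, and 47.6 and 6.34 CPM for males, log2 fold changes of -2.05 and -2.91. Ehhadh, the L-bifunctional protein, fell by 1.25 in females and by 1.63 in males. Acaa1b, a peroxisomal thiolase, was at -3.75 in males, called, or -2.196 without male control 2, and at -2.46 in females (edgeR adjusted p = 0.0501). Acox3, a peroxisomal oxidase, was at -0.92 in females, called, and at -0.16 in males, not called; the interaction was 0.77 ± 0.140 (edgeR adjusted p = 0.0073). Acaa1a, another thiolase, was not called in either sex.

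Hsd17b11, a lipid droplet protein that can oxidise androstanediol, fell with GOF in females. Hsd17b11 (ENSMUSG00000029311, chromosome 5, 103989762 to 104021919, minus strand, protein-coding) was at 90.1, 94.0, 91.8 and 79.9 CPM in female controls 1 to 4 and at 69.6, 52.6, 68.6 and 57.4 CPM in female GOF, without overlap. The log2 fold change was -0.52 ± 0.138 (SE) (edgeR adjusted p = 0.00816); without the 3 control libraries it was -0.49 (adjusted p = 0.0703). Male controls were at 103, 116, 111 and 111 CPM and male GOF at 142, 84.0, 89.9 and 112 CPM. Male GOF 1, the highest, also had the highest sum of 10 macrophage markers, 1775 CPM, and the part of that in its value was not tested. The male GOF libraries lay on both sides of the controls, and the log2 fold change of -0.04 had a 95% interval of -0.34 to 0.25. The interaction, 0.48 ± 0.195, had an adjusted p of 0.183 and was not called. In GOF every male was above every female, by 0.79 ± 0.139 (edgeR adjusted p = 0.000698), a call lost with the animal number range as a covariate, at 0.72 (adjusted p = 0.0638). In controls the groups did not overlap either, but the difference of 0.31 had an adjusted p of 0.115; fitted on the control groups alone it was 0.25 and called (adjusted p = 0.0326).

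Other genes of steroid metabolism were then counted from lists. The shares called among all tested genes, 39.6% in females and 36.9% in males, are the background for each of these lists. Of 13 tested genes of steroid synthesis, 1 rose and 4 fell with GOF in each sex, near that background, with medians of -0.32 in females and -0.57 in males. Without the 3 control libraries, 1 rose and 2 fell in females and 0 rose and 3 fell in males. Hsd3b2, among the falls in females, was at -3.36 (adjusted p = 0.0469), was called in 4 of the 16 fits that left out 1 library and stood at 1.80 (adjusted p = 0.177) without the 3 control libraries. Cyp11b2, the aldosterone synthase, fell by 3.12 and 2.29 on the log2 scale, and Cyb5a, cytochrome b5, by 1.73 and 1.37. Hsd3b1, which makes progesterone from pregnenolone, rose by 0.89 in females and by 0.61 in males. The male call of Hsd3b1 held in 12 of the 16 fits and was lost without the 3 control libraries (edgeR adjusted p = 0.0977). Hsd3b6, an isoform known in the zona glomerulosa, fell by 2.09 in males and was at -1.45 in females, not called. Hsd3b1, Hsd3b2, Hsd3b6 and Cyp11b2 belong to families of similar sequence, whose reads the counting could split.

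Of 10 tested dehydrogenases and reductases outside the set, 0 rose and 4 fell in females, where 20.6% of all genes were called lower, with a median of -0.90, and 0 rose and 8 fell in males, where 21.8% of all genes were called lower, with a median of -1.63. Hsd17b7, an enzyme of cholesterol synthesis that can also make oestradiol, had means of 90.5 (control) and 21.9 CPM (GOF) for females, and 16.9 and 6.67 CPM for males, log2 fold changes of -2.04 and -1.35. Hsd17b14 fell by 2.22 and 2.81, from group means under 1 CPM, and Dhrs9, from 0.397 CPM in male controls, fell by 1.91 in males and kept its call in 12 of the 16 fits. Akr1c18, the 20-alpha-hydroxysteroid dehydrogenase that inactivates progesterone, fell by 14.19 on the log2 scale in females, from a mean of 5407 CPM in controls to 0.283 CPM in GOF, where its libraries held 4 to 16 counts. Without male control 2 alone, the library with liver transcripts, Akr1c14 and Akr1d1 stood at -0.97 and 1.02 in males in place of -3.59 and -4.88. Without the 3 control libraries together, 3 of 9 tested were called in males, Hsd17b7, Hsd17b12 and Hsd17b14. Hsd17b10, at -0.28 in males, was called in 6 of the 16 fits that left out 1 library, and Dhrs9 was not tested without the 3 libraries. Akr1c18, Akr1c14 and Akr1d1 belong to a family of similar genes.

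Of 8 genes of steroid sulfation and hydroxylation, 1 rose and 2 fell in females, where 19.0% of all genes were called higher and 20.6% lower, with a median of -0.21. In males 0 rose and 5 fell, where 21.8% of all genes were called lower, with a median of -0.36. Cyp7b1, which hydroxylates oxysterols and dehydroepiandrosterone, fell by 1.79 and 1.83. Papss2, which makes the sulfate donor, fell by 1.59 in females and 1.72 in males; in females it was at -0.88 without female control 1, and at -0.75 (adjusted p = 0.0781) without the 3 control libraries. Sult1e1, the oestrogen sulfotransferase, fell by 3.06 in males from 3.35 to 0.401 CPM.

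The tested genes whose profile over the 16 libraries was most like that of each member were found by Pearson's r on log2 CPM, as a description. The libraries share group, depth and carried-over tissue, so no p is given. For Srd5a2 they were Efemp2 (r = 0.961), Jrk (0.956) and Cmtm3 (0.954), each with higher means in both male groups than in both female groups. For Srd5a1 they were Crtc3 (0.952), Trp53 (0.946) and Kat2a (0.946), each higher in GOF than in control of the same sex. For Hsd17b1 they were Vegfd (0.887), Cyp4f13 (0.869) and Mif4gd (0.865). For Hsd11b1 they were Pcdh1 (0.961), Camk2a (0.959) and Fermt2 (0.957), and for Hsd11b2 Slc22a8 (0.954), Pth1r (0.952) and Tfcp2l1 (0.949). Slc22a8, a kidney anion transporter, had a mean of 17.8 CPM in female controls and at most 0.918 CPM in the other groups. For Srd5a3 they were Mpdu1 (0.939), Frmd8 (0.895) and Snx14 (0.889). For Hsd17b4 they were Ptgr2 (0.973), Tmem14c (0.967) and Mrpl34 (0.967), and for Hsd17b11 Lmbrd1 (0.965), Dtna (0.933) and Mchr1 (0.914).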

How the data were processed

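The deposited counts are whole reads per Ensembl gene without normalization, and the deposited FPKM are fragments scaled by transcript length and library size, as their headers, names and values show. The submitters' processing notes name Bowtie2 2.2.3, TopHat2 2.0.12, HTSeq 0.6.1 and DESeq 1.18.0 without their roles; build, annotation and strand setting are not given in the sources used here. Dividing counts by the authors' FPKM and the library total gave a gene length for the 20938 genes with at least 10 counts in a library. Of those with a GENCODE M21 identifier, 96.8% matched the mean M21 transcript length within 1 base. Symbols and coordinates are therefore from M21 (GRCm38). Counts were fitted with edgeR 4.0.16 (R 4.3.3): filterByExpr, TMM factors, robust quasi-likelihood, 1 mean per group over 16 libraries, and 5 contrasts. SE were computed from fold change and F. Replicate numbers follow accession order; each library is another mouse, and the chi-square per degree of freedom between libraries of a group was at least 29.5. Alternatives used DESeq2 1.42.0, limma 3.58.1, other factors and filters, and left-out libraries. The fit was tested on simulated data. Members and lists were chosen with earlier results of these data known. All members are named; from each list, the 3 largest called changes without overlap per GOF contrast, Akr1c14, Akr1d1, Acox3, Acaa1a, Cyp11a1, Cyp21a1, Cyp11b1 and H6pd being added after their values were seen; and per member, genes with the highest r. Some list genes that the rule picks are not reported here by name. Marker lists were liver, kidney, collecting duct, fat cell, capsule, medulla, X-zone, macrophage, zona glomerulosa, zona fasciculata, Leydig and granulosa cell. The bound for Hsd17b3 without 1 library was added, and Hsd3b2, Hsd17b10 and Hsd17b12 were named after their values were seen.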

Additional observations from a re-analysis of the deposited data

Results flagged for a closer look

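Among 36 sets of 1 gene in 1 group, a single library stood apart from the other 3 in 3 sets; chance alone does so in about 5% of sets. Hsd11b2 in female control 1 was at 26.8 CPM, 1 of the 2 libraries with kidney transcripts. Srd5a1 in male GOF 2 was at 115 CPM, against 31.5 to 37.8 CPM in the other male GOF libraries. Hsd17b3 in male control 1 was at 1.14 CPM, from 37 counts. The GOF effect differed between the sexes, by the interaction term, for Srd5a2, by -1.71 on the log2 scale, and for Hsd17b1, by 2.01.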

How the results depend on the processing

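Without 1 library at a time, genes called ranged from 5709 to 7466 for GOF in females and 5215 to 6711 for GOF in males. They ranged from 2650 to 4881 for sex in controls, 4243 to 5660 for sex in GOF and 377 to 953 for the interaction. Of the members tested in each fit, 6 to 8, 4 to 5, 3 to 5, 3 to 5 and 2 to 2 were called, in the same order. The count of 8 is reached only with Hsd17b3, which had enough counts to be tested in some of these fits. Without female control 1, female control 3 and male control 2 together, 4554 genes were called for GOF in females, 1648 (2 members) for sex in controls and 175 (1 member) for the interaction. With the animal number range as a covariate the counts were 1311 (3 members) for sex in controls, 1336 (1 member) for sex in GOF and 440 for the interaction. Only 1 range held both sexes, so the sex counts with that covariate rest on few libraries. For the interaction 408 genes were called with no filter, 1434 by DESeq2, 1328 by voom with sample quality weights and 470 (1 member) by limma on log2(FPKM + 1) with no filter; with no filter 3 members were called for sex in controls.

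Some values changed sign. Hsd17b11 in males was at 0.026 with upper-quartile factors and at 0.044 in the 3 fits on log2 FPKM, and ranged from -0.23 to 0.042 without 1 library. Srd5a3 in males was at -0.034 without the 3 controls and ranged from -0.038 to 0.067 without 1 library. Srd5a3 for sex in GOF was at 0.0032 with a pseudocount of 1, with or without a filter, at 0.0035 with 0.1, and ranged from -0.13 to 0.0088 without 1 library. Hsd17b1 for sex in GOF ranged from -0.16 to 0.047 without 1 library. Hsd11b2 was at 0.62 for sex in controls and -0.46 for the interaction without the 3 controls, and at -1.97 for sex in GOF with the animal number range. The interaction of Hsd17b4 was at 0.024 with upper-quartile factors and ranged from -0.13 to 0.0061 without 1 library. That of Hsd11b1 was at 0.022 without the 3 controls and ranged from -0.34 to 0.070 without 1 library. The cause was not tested. Among called genes, the share higher in GOF was 48.0% in females and 41.1% in males, against 60.7% and 61.3% on log2(FPKM + 1), which moved the median of all genes in males to 0.10. With upper-quartile factors the share higher was 51.2% for GOF in males, 55.2% against 44.9% for sex in GOF and 62.6% against 37.9% for the interaction, which was 48.5% with RLE factors. No paired analysis was possible because replicate numbers only follow accession order. Members under about 1 CPM rest on few counts.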
